A study of Mus musculus with 6 samples.

Results

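The genes described here are 10 genes that mark atrial heart muscle: Myl7, Myl4, Sln, Nr2f1, Nr2f2, Mybphl, Bmp10, Sbk2, Stard10 and Pam. They were taken as every non-control array probe whose gene name equals one of these symbols, which gave 11 probes for 10 of the 35440 genes on the array. The list was selected on the difference between H19 KO and WT in these same arrays, Myl7, Myl4 and Sln leading it as low in H19 KO. The differences between genotypes below therefore describe the 10 genes and carry no test. A gene entered the fit, which held 21893 genes, if 3 or more of the 6 arrays read its probe well above background. Of the 10, 8 did so, and Mybphl and Bmp10 did not.

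The study compared cardiomyocytes of adult H19 KO mice with those of their wild-type (WT) littermates, 3 arrays of each genotype. The H19 gene is imprinted and makes a long non-coding RNA. All mice had undergone transverse aortic constriction (TAC), an operation that narrows the aorta and loads the left ventricle, and cells were isolated 6 weeks later by retrograde perfusion of the heart. Unoperated hearts were not analysed here, so both genotypes carry the pressure load. The sources used here do not say which bases the knockout deletes, which strain was used, whether an array held RNA of a single mouse, or whether atria were taken off before the cells were isolated, and the spread below is the spread between arrays.

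The adult mouse heart builds its chambers from closely related but partly separate sets of muscle proteins. Atrial myocytes use the myosin light chains Myl7 and Myl4 where ventricular myocytes use Myl2 and Myl3. They also carry sarcolipin (Sln) as a regulator of the calcium pump. Phospholamban (Pln) is the main such regulator of ventricular myocytes, though not confined to them. The nuclear receptor Nr2f2 is known in the mouse as a regulator of atrial identity, and Nr2f1 is a receptor of the same family.

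Every array was labelled as cardiomyocytes, and all 8 cardiomyocyte markers of the list (troponins, cardiac actin, titin, the release channel and others) were measured on it. Their median log2 difference, H19 KO minus WT, was -0.07, and 0 of 8 passed the limma test at an adjusted p of 0.05 (0 at an unadjusted p under 0.05). H19 itself was well above background on 0 of 3 H19 KO arrays and on 3 of 3 WT arrays, at least 32.7-fold higher in WT, a bound that sets the WT mean against the lowest signal well above background on each H19 KO array. The arrays had from 48.8% to 58.6% of spots well above background and no saturated spot, and correlated with each other at 0.981 to 0.990 both within and between genotypes. Slide 1 held replicate 1 of H19 KO and of WT, and slide 2 held the other 4 arrays. In what follows a relative signal is an array's processed signal divided by that array's 75th percentile, so a relative signal of 1 is the 75th percentile, and values of different probes are not set against each other.

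Myl7, Myl4 and Sln were low on every H19 KO array, by 3.71 log2 units as the mean of the 3 differences, and the other 5 members in the fit had a median difference of 0.01. Myl7 encodes the regulatory light chain of atrial myosin. Its relative signal was 0.215, 0.143 and 0.160 on H19 KO arrays 1, 2 and 3, against 2.49, 3.96 and 0.735 on WT arrays 1, 2 and 3. The H19 KO arrays lay close together, all were below all WT arrays, and among the WT arrays replicate 3 was far the lowest. On the log2 scale the H19 KO mean was -2.56 ± 0.30 and the WT mean 0.95 ± 1.26 (SD, n = 3 each), a difference of -3.51 (SE 0.58), which is 11.4-fold lower. The 2 slides gave -3.54 (1 array against 1) and -3.50 (2 against 2).

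The Myl7 values rest on a single probe, shown because the whole of that difference was read through it. It lies at chr11:5798186-5798435 (mm9, minus strand, per the file headers). Its 60 bases cover 250 bases of genome, so it crosses an intron, and it reads the coding part of the mRNA.
Myl7 probe: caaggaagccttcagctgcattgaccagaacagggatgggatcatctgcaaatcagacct

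Myl4 encodes the essential light chain of atrial myosin. Its relative signal was 5.50, 2.73 and 3.05 on H19 KO arrays 1, 2 and 3, against 33.3, 41.7 and 11.0 on WT arrays 1, 2 and 3. The groups did not overlap, and WT replicate 3 was again the lowest WT array. The H19 KO mean was 1.84 ± 0.54 and the WT mean 4.63 ± 1.03 (log2, SD, n = 3 each), a difference of -2.79 (SE 0.53), or 6.92-fold lower. The probe lies at chr11:104448441-104448500 (mm9, plus strand), and the slides gave -2.60 and -2.89.

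Sln encodes sarcolipin, a small membrane peptide that inhibits the calcium pump of the sarcoplasmic reticulum. Its relative signal was 0.724, 0.0999 and 0.466 on H19 KO arrays 1, 2 and 3, against 12.3, 16.9 and 3.79 on WT arrays 1, 2 and 3. Here too the groups were apart and WT replicate 3 was the lowest of WT, while H19 KO replicate 2 lay well below the other H19 KO arrays. The H19 KO mean was -1.63 ± 1.50 and the WT mean 3.21 ± 1.14 (log2, SD, n = 3 each), a difference of -4.84 (SE 0.84), or 28.6-fold lower. The distance from the highest H19 KO array to the lowest WT array was 2.39 log2 units for Sln, 1.77 for Myl7 and 0.99 for Myl4, while the WT arrays themselves spanned 2.16, 2.43 and 1.93 units. The Sln probe lies at chr9:53701574-53701633 (mm9, plus strand), and the slides gave -4.08 and -5.21.

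**Figure D1:**
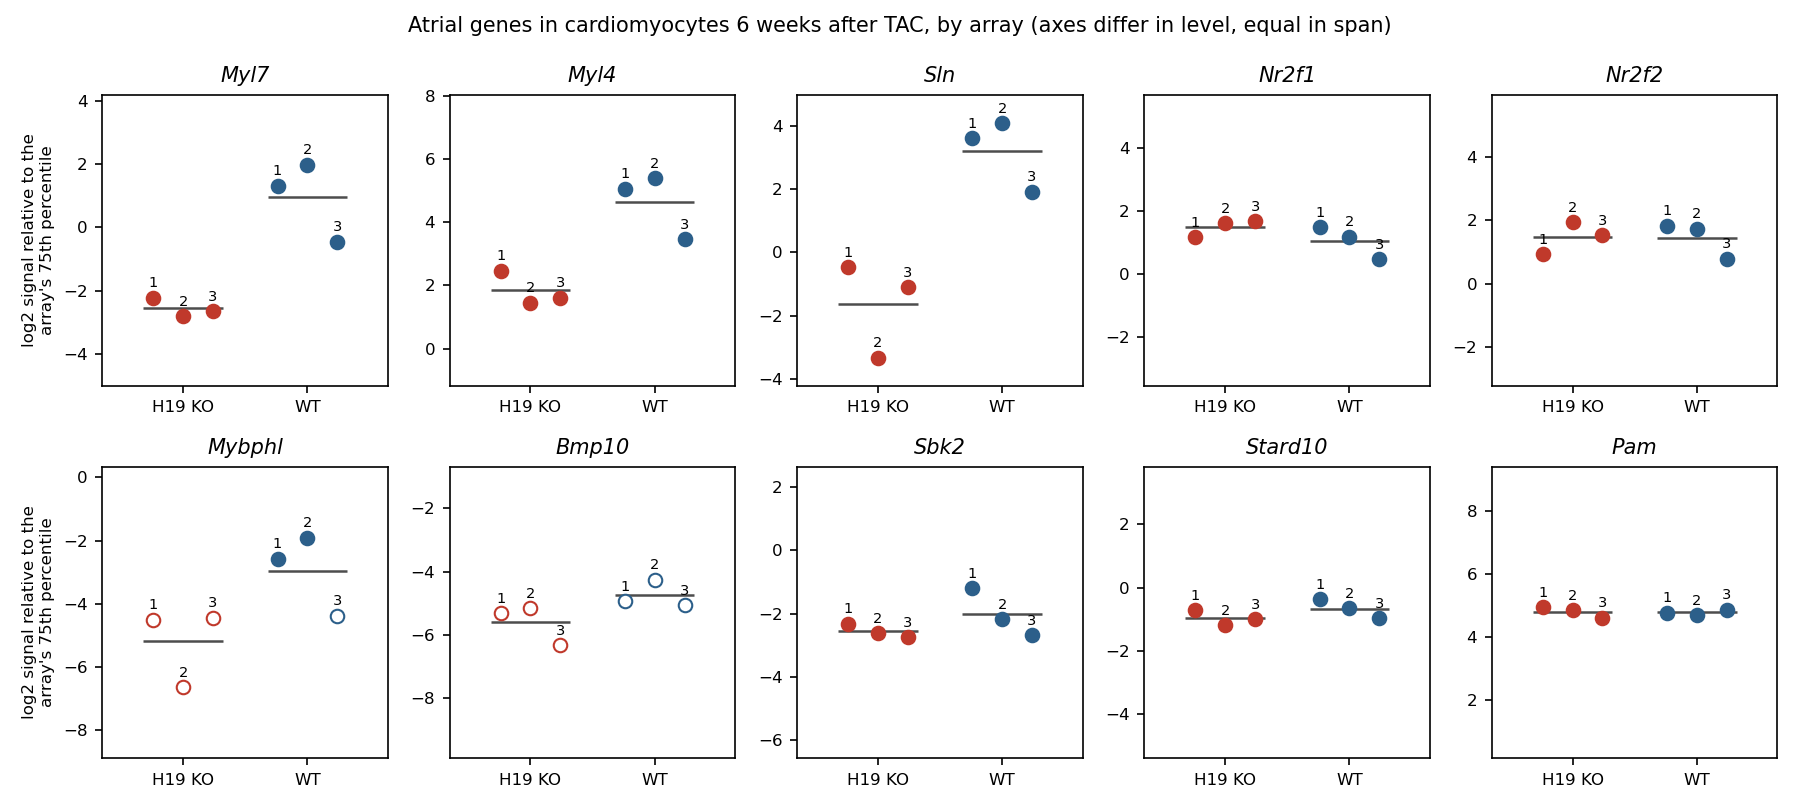
Log2 relative signal (vertical axis) of the 10 genes on each array, H19 KO in red on the left and WT in blue on the right of each panel; digits are replicate numbers, lines are group means, and open circles mark arrays on which the probe was not well above background. All panels span the same number of log2 units. Myl7, Myl4 and Sln show separate groups with WT replicate 3 lowest of WT, and the Nr2f1, Nr2f2, Sbk2, Stard10 and Pam panels show overlapping groups.

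Mybphl encodes a myosin-binding protein of the atrial thick filament and lay near the limit of detection. It was well above background on 0 of 3 H19 KO arrays and on 2 of 3 WT arrays, replicates 1 and 2, and was not tested. Its relative signal was 0.0442, 0.0101 and 0.0461 on H19 KO arrays 1, 2 and 3, against 0.168, 0.266 and 0.0482 on WT arrays 1, 2 and 3. The readings on WT replicate 3 and on the H19 KO arrays are background readings and have no order among themselves. The mean log2 readings were -5.19 in H19 KO and -2.95 in WT, with no fold given because WT replicate 3 did not measure the gene. The probe lies at chr3:108178294-108178353 (mm9, plus strand).

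The 250 bases before the start sites of Myl7, Myl4 and Mybphl are shown because these genes read dimmer in H19 KO and a promoter sequence was to hand. They are from RefSeq, build GRCm38.p6, read 5′ to 3′ towards the start, at chr11:5898783-5899032 on the minus strand for Myl7, chr11:104550413-104550662 on the plus strand for Myl4 and chr3:108364661-108364910 on the plus strand for Mybphl. Capitals mark a CArG box, the site of serum response factor, in Myl7, beginning 61 bases before the start, and a GATA site (AGATAA) in Mybphl, beginning 141 bases before it.
Myl7: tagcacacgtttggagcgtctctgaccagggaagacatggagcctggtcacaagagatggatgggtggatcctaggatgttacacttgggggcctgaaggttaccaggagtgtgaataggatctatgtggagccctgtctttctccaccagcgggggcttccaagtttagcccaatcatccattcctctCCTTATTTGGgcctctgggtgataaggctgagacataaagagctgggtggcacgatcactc
Myl4: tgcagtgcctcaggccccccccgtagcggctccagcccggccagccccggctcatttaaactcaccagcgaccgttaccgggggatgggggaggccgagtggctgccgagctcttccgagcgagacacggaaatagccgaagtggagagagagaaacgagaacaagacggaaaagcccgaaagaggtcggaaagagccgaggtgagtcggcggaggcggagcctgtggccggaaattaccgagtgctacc
Mybphl: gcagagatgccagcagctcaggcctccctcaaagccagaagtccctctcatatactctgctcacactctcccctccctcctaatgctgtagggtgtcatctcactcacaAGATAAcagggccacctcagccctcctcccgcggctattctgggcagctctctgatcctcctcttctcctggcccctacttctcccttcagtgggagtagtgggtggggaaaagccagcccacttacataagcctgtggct

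Both strands were searched for 6 motifs in the 9 members that matched the promoter table, which were all but Sln. A TATA box (TATAAA), a COUP-TF core site (AGGTCA), which the Nr2f receptors recognise, and a MEF2 site stood in the window of 0 of 9 members, against 12.3%, 14% and 2.89% of 32536 promoters of the same length. The GATA site (AGATAA) stood in 2 of 9, Mybphl and Bmp10 (9.97% of promoters), the T-box core (GGTGTG) in 2 of 9, Sbk2 and Stard10 (16.3%), and the CArG box in 1 of 9, Myl7 (1.48%). The 3 sequences above share none of the 6 motifs as searched. Other spellings of the GATA site than AGATAA were not searched and are not marked. A match describes the letters of this window only.

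Bmp10, a secreted ligand of the BMP family made by atrial and trabecular myocytes, was well above background on 0 of 6 arrays and has no fold here (probe at chr6:87384427-87384486, mm9). Nr2f2 had a relative signal of 1.90, 3.83 and 2.90 on H19 KO arrays 1, 2 and 3, against 3.56, 3.35 and 1.73 on WT arrays 1, 2 and 3. The groups overlapped and the log2 difference was 0.01 (SE 0.36), with -0.90 on slide 1 and 0.47 on slide 2. This receptor, also called COUP-TFII, has its probe at chr7:77496873-77496932 (mm9, minus strand).

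Nr2f1, or COUP-TFI, was read by 2 probes. The brighter one, at chr13:78328290-78328349 (mm9, minus strand), gave 2.24, 3.05 and 3.18 on H19 KO arrays 1, 2 and 3, against 2.82, 2.28 and 1.38 on WT arrays 1, 2 and 3. The other, at chr13:78328723-78328782, gave 0.896, 1.03 and 1.48 on the H19 KO arrays, against 0.968, 1.01 and 0.598 on the WT arrays. Both overlapped between genotypes and both had WT replicate 3 lowest. Their log2 differences were 0.43 (SE 0.29) and 0.41, opposite in sign to Myl7, Myl4 and Sln, and the brighter probe gave -0.33 on slide 1, 0.81 on slide 2 and 0.14 without WT replicate 3.

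Sbk2, a serine/threonine kinase of the SH3-binding family, had a relative signal of 0.201, 0.163 and 0.150 on H19 KO arrays 1, 2 and 3, against 0.440, 0.221 and 0.155 on WT arrays 1, 2 and 3. The lowest WT array lay within the H19 KO range, so the groups overlapped, and the highest was WT replicate 1. The difference was -0.54 (SE 0.37), with -1.13 on slide 1, -0.24 on slide 2 and -0.12 without WT replicate 1 (probe at chr7:4908756-4908815, mm9, minus strand).

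Stard10, a lipid-transfer protein, read 0.613, 0.437 and 0.500 on H19 KO arrays 1, 2 and 3, against 0.771, 0.634 and 0.509 on WT arrays 1, 2 and 3. The groups overlapped by a single array on each side, and the difference was -0.30 (SE 0.21). Pam encodes the enzyme that amidates peptide hormones and is a major protein of atrial secretory granules. It read 30.8, 28.8 and 24.7 on H19 KO arrays 1, 2 and 3, against 27.4, 26.1 and 29.3 on WT arrays 1, 2 and 3, a difference of 0.02 (SE 0.15). Its arrays were the most even of the members measured, and it was the only one of the 8 in which WT replicate 3 was not the lowest WT array. The Stard10 probe covers chr7:108470512-108491035 (mm9, plus strand) across introns, and the Pam probe lies at chr1:99718052-99718111 (mm9, minus strand).

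Counted over the 8 members in the fit, 3 were higher and 5 lower in H19 KO, with a median of -0.42, beside a median of -0.06 over all 21893 genes. Of all these genes 7945 were higher and 13948 lower, so most genes leaned the same way, here and in the counts of direction below. Those whose H19 KO arrays all lay below the WT arrays were 3 of 8 (8.67% of all genes), and the same 3 were at least 4-fold lower (0.114% of all genes). At an adjusted p of 0.05 (limma, Benjamini-Hochberg over all genes) 0 of 8 were called (0.032% of all genes), and 3, all lower, were below an unadjusted p of 0.05 (6.95% of all genes lower, 7.94% in either direction). In 0 of 8 did all H19 KO arrays lie above all WT arrays (1.83% of all genes). Since the list was made with this contrast known, these counts describe it. Without Myl7, Myl4 and Sln, 3 of the 5 members in the fit were higher and 2 lower, and in all 5 the groups overlapped. In a bulk sample, fewer cells that carry an RNA and less of that RNA per cell cannot be told apart. The arrays also do not show whether atrial or ventricular myocytes carried it.

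**Figure D2:**
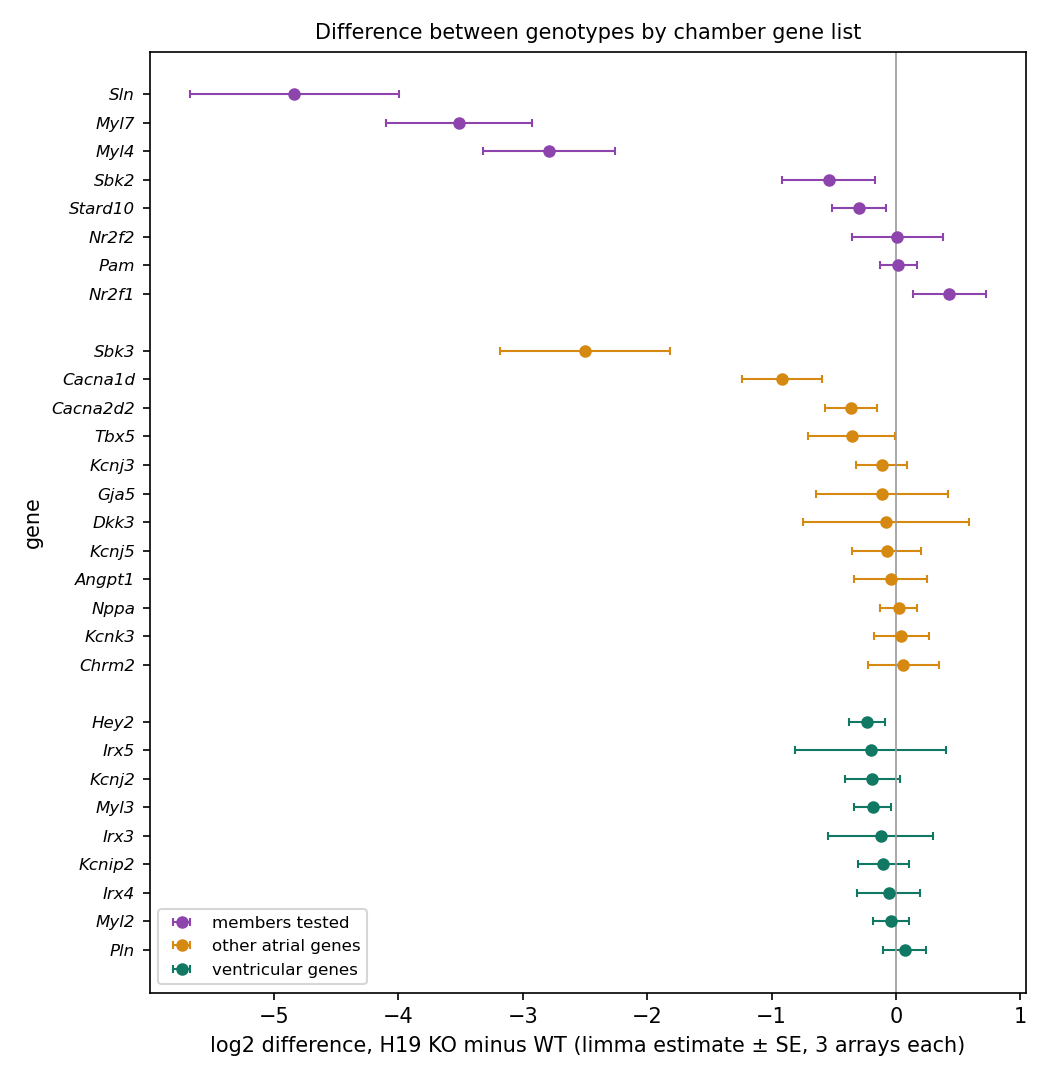
Log2 difference, H19 KO minus WT, with its SE (limma, 3 arrays each) for the 8 members measured (purple), 12 other atrial genes (orange) and 9 ventricular genes (green). Sln, Myl7 and Myl4 lie between -4.84 and -2.79, Sbk3 at -2.50, and the remaining genes of the 3 lists between -0.91 and 0.43.

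The array-by-array profiles of the members were set beside the mean profile of Myl7, Myl4 and Sln. Myl7, Myl4 and Sln each correlated at 0.989 to 0.993 with their own mean profile over the 6 arrays, to which each contributes. Stard10 correlated with that profile at 0.78, Sbk2 at 0.66, Nr2f2 at 0.08, Pam at -0.19 and Nr2f1 at -0.34. These coefficients describe 6 arrays in 2 genotypes and are given with no test. They draw on the difference between genotypes by which Myl7, Myl4 and Sln were chosen. A high or low value therefore largely restates that difference and does not show that genes moved together within a genotype. By the same measure the named genes outside the list that were most like the 3 were Zfp607a (0.993), Nthl1 (0.982), P4ha3 (0.980), Arsg (0.978), Rps4l (0.977), Cnbd2 (0.977), Leng9 (0.972) and Wnk4 (0.971). Likeness of shape was not likeness of size, since their differences ran only from -0.84 (P4ha3, SE 0.16) to -0.15 (Leng9, SE 0.13).

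The spread within WT was large for Myl7, Myl4 and Sln. It is not independent of the choice of the genes, since the difference between genotypes draws on the same WT values. WT replicate 2 stood above WT replicate 3 by 2.43 log2 units in Myl7, 1.93 in Myl4 and 2.16 in Sln, and WT replicate 1 by 1.76, 1.60 and 1.69 in the same order. Mybphl was above background on WT replicates 1 and 2 but not on replicate 3. In Nr2f1, Nr2f2, Sbk2 and Stard10 the distances for replicate 2 were 0.72, 0.95, 0.51 and 0.32 and those for replicate 1 were 1.03, 1.04, 1.50 and 0.60, so that the Sbk2 distance for replicate 1 came close to that of Myl4. In Pam they were -0.17 and -0.10. Over all genes measured, 128 of 21893 (0.585%) had WT replicate 2 at least 1.5 and WT replicate 1 at least 1 log2 units above replicate 3, limits that were set after these values had been seen, and 74 (0.338%) had them as far below replicate 3. Of these 128, 6 (4.69%) also had all H19 KO arrays below all WT arrays: Myl7, Myl4, Sln, Sbk3, Fgf12 and a transcript with no gene symbol. The share was 8.67% over all genes, but these shares cannot be compared. The limits place WT replicate 3 low, which by itself makes full separation less likely. They were also set with the values of Myl7, Myl4 and Sln known. Sbk3 is a kinase of the same family as Sbk2, and Fgf12, an intracellular regulator of sodium channels, was named for this pattern after its values were seen. Fgf12 was well above background on 0 of 3 H19 KO arrays and 3 of 3 WT arrays, at least 2.05-fold higher in WT. Its H19 KO values are background readings, so whether WT replicate 3 lay above all of them was not measured.

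**Figure D3:**
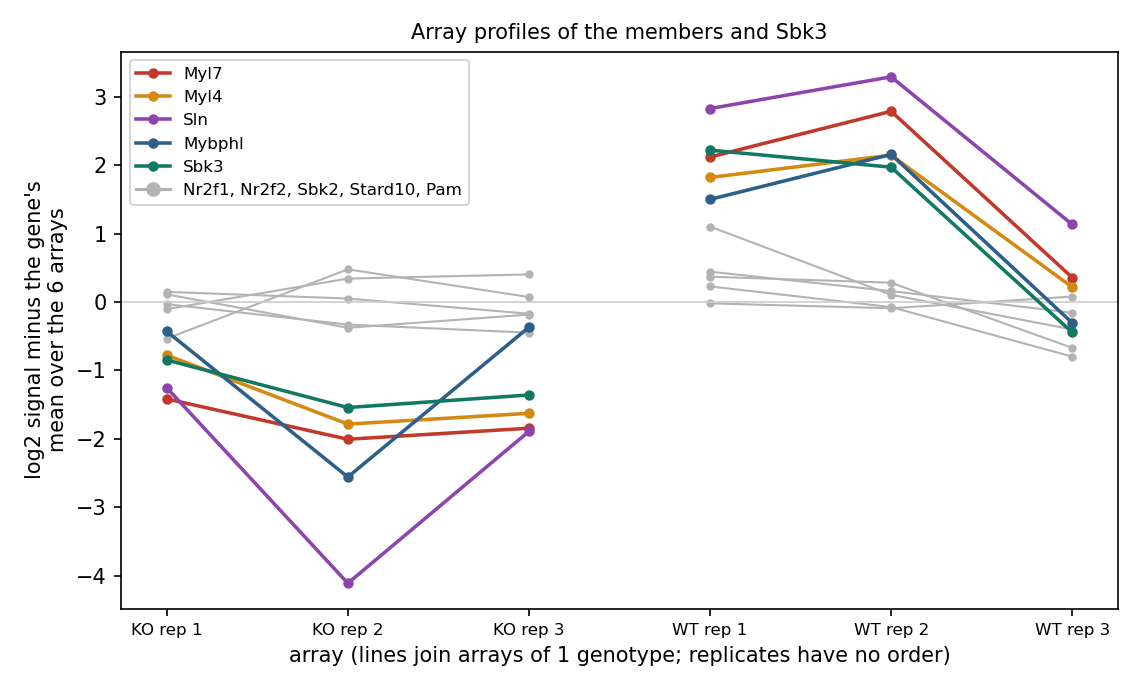
Log2 signal minus the gene's mean over the 6 arrays (vertical axis) for each array, H19 KO replicates on the left and WT replicates on the right; lines join arrays of a genotype only to guide the eye. Myl7, Myl4, Sln, Mybphl and Sbk3 are high on WT replicates 1 and 2 and lower on WT replicate 3; the grey lines of the other 5 measured members span less. Mybphl was not well above background on WT replicate 3 or on the H19 KO arrays.

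The mean difference of Myl7, Myl4 and Sln was -4.36 without WT replicate 3, -3.27 without WT replicate 2 and -3.32 without H19 KO replicate 2, against -3.71 with all arrays. WT replicate 3 was the lowest WT array in 7 of the 8 members measured, in 5 of 12 other atrial genes and in 2 of 9 ventricular genes, against 41.1% of all genes.

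Most other genes known from the atrium differed by less than 0.4 log2 units. Of 13 listed, 12 were measured, and 3 were higher and 9 lower in H19 KO with a median of -0.10; 0 of 12 passed the adjusted threshold and 2 were below an unadjusted p of 0.05, Sbk3 and Cacna1d. Nppa, which encodes atrial natriuretic peptide, read 289, 268 and 245 on H19 KO arrays 1, 2 and 3, against 243, 263 and 283 on WT arrays 1, 2 and 3 (difference 0.02, SE 0.15). Ventricular myocytes also make Nppa under load. The potassium channel genes Kcnj3 (-0.12), Kcnj5 (-0.08) and Kcnk3 (0.04), the muscarinic receptor gene Chrm2 (0.06) and the connexin gene Gja5 (-0.12, SE 0.53) lay near 0. The transcription factor gene Tbx5 differed by -0.36 (SE 0.35).

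Sbk3 was the exception among them. Its relative signal was 0.124, 0.0766 and 0.0870 on H19 KO arrays 1, 2 and 3, against 1.04, 0.875 and 0.164 on WT arrays 1, 2 and 3. The groups did not overlap, and WT replicate 3 lay near the H19 KO arrays, 2.42 log2 units below replicate 2 and 2.67 below replicate 1. The difference was -2.50 (SE 0.68), 5.65-fold lower, which did not pass the correction over all genes (limma adjusted p = 0.621), and the slides gave -3.07 and -2.22. Its probe, at chr7:4916893-4916952 (mm9), lies close to that of Sbk2, whose values overlapped between genotypes. Cacna1d, a pore subunit of L-type calcium channels of the atria and the sinus node, read 0.0913, 0.0983 and 0.0810 on H19 KO arrays 1, 2 and 3, against 0.274, 0.159 and 0.112 on WT arrays 1, 2 and 3 (-0.91, SE 0.32, limma adjusted p = 0.621). Among sinus node genes, Hcn4, Isl1 and Vsnl1 were above background on 0 of 6 arrays and Shox2 on 1, while Tbx3 (-0.20) and Tbx18 (0.59) were measured with no call.

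The ventricular counterparts of the low genes differed little. Myl2, the ventricular regulatory light chain, read 266, 220 and 255 on H19 KO arrays 1, 2 and 3, against 260, 254 and 246 on WT arrays 1, 2 and 3, a difference of -0.04 (SE 0.14). Myl3, the ventricular essential light chain, differed by -0.19 (SE 0.15) and Pln by 0.07 (SE 0.18). Of 10 ventricular genes listed, 9 were measured (Hand1 was not), 1 higher and 8 lower, with a median of -0.12, and 0 passed (limma, 0 at an unadjusted p under 0.05). In 2 of the 9, Myl3 and Hey2, all H19 KO arrays lay below all WT arrays (8.67% of all genes). Among the calcium pump and its regulators, Atp2a2, the pump itself, differed by -0.06 (SE 0.16) and Mrln, the myoregulin gene, by -0.31 (SE 0.21), and 0 of 5 measured genes passed (0 at an unadjusted p under 0.05). Of 10 genes on a list of other light chains, their kinase and the cardiac myosin heavy chains, 9 were measured and 0 passed (0 at an unadjusted p under 0.05), with a median of 0.05.

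Markers of other cells also differed between arrays. All 10 fibroblast markers were higher in H19 KO, with a median of 0.59 and a summed relative signal of 261 to 536 in H19 KO and 172 to 344 in WT, and 0 of 10 passed (1 at an unadjusted p under 0.05). On slide 1 all 10 were lower in H19 KO, and their mean deviation was -0.35, 1.18 and 0.10 on H19 KO replicates 1, 2 and 3, against 0.30, -0.39 and -0.84 on WT replicates 1, 2 and 3. All 9 macrophage markers were lower, with a median of -0.59 and a sum of 28.6 to 61.0 in H19 KO and 46.5 to 61.9 in WT, and 0 of 9 passed (0 at an unadjusted p under 0.05). The 6 smooth muscle markers had a median of -0.12 and sums of 83.2 to 119 in H19 KO and 62.5 to 112 in WT. Their mean deviation was 0.48 and 0.45 on WT replicates 1 and 2 and -0.81 on replicate 3. Replicate 3 was also the lowest of WT for Myl7, Myl4 and Sln (2.26, 2.74 and 0.57), and Tagln, Myh11 and Cnn1 were among the 128 genes with that pattern. On H19 KO replicates 1, 2 and 3 the smooth muscle markers lay at -0.37, 0.56 and -0.31, where Myl7, Myl4 and Sln lay at -1.15, -2.63 and -1.79. The 6 mesothelial markers had a median of 0.66 and 0 passed. Krt8 (1.25) and Krt18 (1.07) were below an unadjusted p of 0.05 (7.94% of all genes). The 8 endothelial markers had a median of 0.01 (0 at an unadjusted p under 0.05). On replicates 1, 2 and 3 their mean deviation was -0.42, 0.32 and 0.08 in H19 KO, against 0.33, 0.09 and -0.40 in WT. In H19 KO the endothelial, smooth muscle and fibroblast lists and Nr2f2 were all lowest on replicate 1 and highest on replicate 2. In WT they were lowest on replicate 3 and highest on replicate 1. Of the lymphocyte, erythroid and neural markers 2 of 6, 2 of 4 and 3 of 4 were measured, with medians of 1.48, 0.17 and -0.19. The others were too dim or had no probe under that symbol. The lymphocyte median is that of Cd3e (0.29) and Lck (2.68), and Lck was above background on 1 of 3 WT arrays. The 2 erythroid genes varied widely, with mean deviations of -2.25, 3.04 and -0.54 on H19 KO replicates 1, 2 and 3. On WT replicates 1, 2 and 3 their mean deviations were 2.41, -1.08 and -1.58. The part of these cell markers in the values of the atrial genes was not tested.

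**Figure D4:**
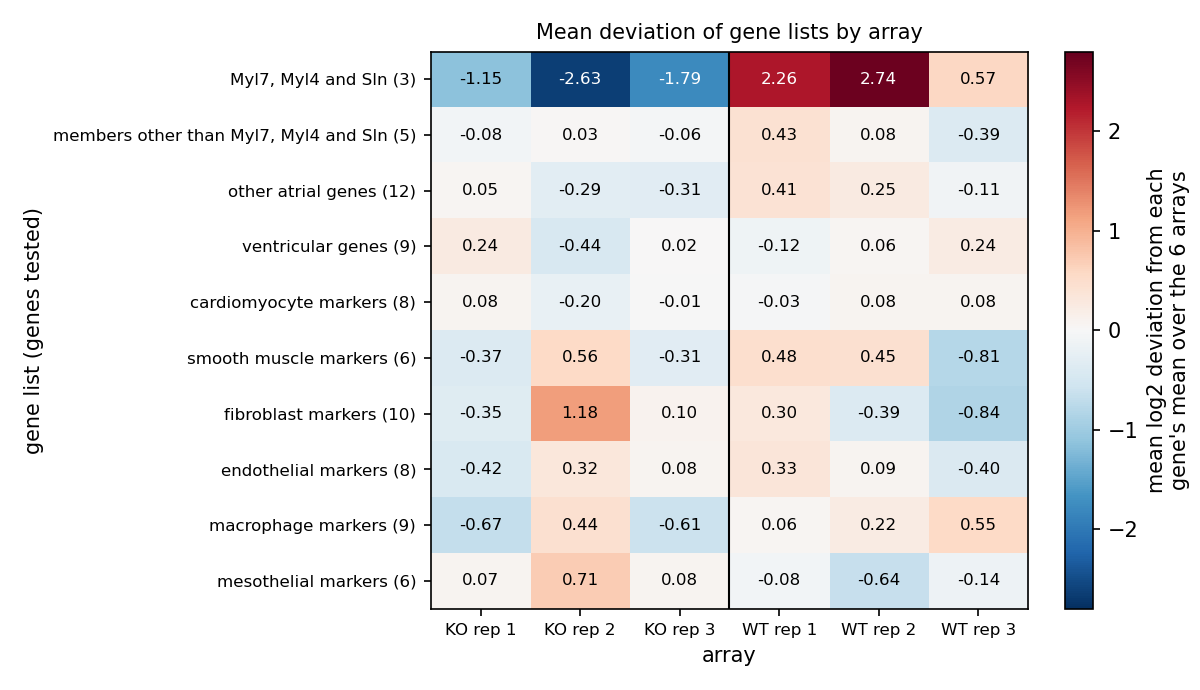
Mean log2 deviation of gene lists from their genes' means over the 6 arrays (colour and printed value), with lists as rows and arrays as columns, H19 KO left of the line and WT right of it. Some lists, among them the erythroid, lymphocyte and neural markers, are not shown. The row of Myl7, Myl4 and Sln runs from -2.63 to 2.74, and the other members stay between -0.39 and 0.43. The smooth muscle and fibroblast rows and the row of the other members each have their lowest value on WT replicate 3. The endothelial row is nearly as low there (-0.40) as on H19 KO replicate 1 (-0.42).

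Genes around the 3 low genes gave values on both sides of 0. Within 1 Mb of the Myl7 probe 51 genes were measured, with 31 lower, a median of -0.04 and a range from -0.93 (Znrf3) to 0.52 (Aebp1). Pold2, which encodes a DNA polymerase subunit, lay nearest on the side of lower coordinates (-0.13, SE 0.16, at 25.2 kb). Around Myl4, 24 genes had a median of -0.06 and a range from -1.15 to 2.66, and the nearest were Cdc27, of the anaphase-promoting complex (-0.40, SE 0.22, at 83.9 kb), and the integrin gene Itgb3 (1.04, SE 0.63, at 83.2 kb). Around Sln, 17 genes had a median of -0.07, with Slc35f2 (0.29, SE 0.53, at 35.7 kb) and Dmxl2 (0.08, SE 0.23, at 516 kb) nearest. Of these neighbours 0 passed the limma threshold, and 1, 4 and 2 of them were below an unadjusted p of 0.05 around Myl7, Myl4 and Sln, against 7.94% of all genes.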

How the data were processed

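Total RNA of cardiomyocytes was hybridised to 1-colour Agilent mouse arrays, 3 labelled H19 KO and 3 labelled wild type. Per the file headers, the deposited scanner files, made with Agilent Feature Extraction 10.7.3.1, hold for each spot a background-subtracted, detrended intensity, not normalized between arrays, with probe coordinates on mm9. A second deposited table of intensity values had the same median (69.7) on all arrays and a rank correlation of 1 with the scanner values, and was an alternative only.

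The log2 of the processed intensity minus the array's 75th percentile (774 to 1152) was used. Control and outlier spots were left out, spots of a probe averaged, and probes kept that stood well above background on 3 or more of the 6 arrays, with the brightest probe standing for each gene. A probe counted as well above background on an array where any of its usable spots did. Names were updated through RefSeq (GRCm38.p6): accessions named 26425 probes, symbols 3988 and synonyms 826, while 24442 stayed as in the file. Genotypes were compared with limma 3.58.1 (R 4.3.3), H19 KO minus WT, adjusted over 21893 genes at 0.05, after a check on simulated data. The 10 members, the gene lists and the alternatives were chosen with earlier results of these data known. All members, list genes, the 8 named genes most correlated with the mean profile of Myl7, Myl4 and Sln, and nearest neighbours within 1 Mb could be named; the values of some of these genes are not reported here.

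Alternatives were background correction with normexp (offset 50), quantile or median scaling, the deposited table, other filters, averaging over a gene's probes, a block for replicate or slide, single slides, an intensity trend, and leaving out each array.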

Additional observations from a re-analysis of the deposited data

How the results depend on the processing

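The mean difference of Myl7, Myl4 and Sln (-3.71) ran from -4.36 to -3.27 over the 18 alternatives. With 1 array left out at a time it ran from -4.36 to -3.27 and with the others from -3.87 to -3.29. Leaving out arrays or taking single slides could not turn its direction, since all H19 KO arrays lay below all WT arrays in these 3 genes. The other filters, the averaging over probes, the blocks and the intensity trend left it at -3.71 and could not have changed it. The median of the members measured (-0.42) ran from -0.66 to -0.14 with 1 array left out, was -1.02 within slide 1, and was 0.01 with median scaling. The median of the other atrial genes (-0.10) ran from -0.31 to 0.00 with 1 array left out, was 0.33 when arrays were scaled to their median and 0.25 within slide 1. That scaling moved the median of all genes to 0.36, against -0.06 as reported. Without WT replicate 1 Sbk2 was -0.12 and Stard10 -0.15, and without WT replicate 3 Nr2f1 was 0.14 and Nr2f2 -0.32. Nr2f1 was reversed within slide 1 (-0.33) and Stard10 with median scaling (0.13). The 7 genes called over the whole table became 3 with quantile normalization, 118 with median scaling, 3 with the authors' deposited values, 1 with no filter on dim probes and 1 within slide 2. With slide as a block 1 was called, and with the replicate number as a block 1. Leaving out 1 array gave 1 to 10 calls. The replicate numbers were not taken as pairs, since deviations of same-numbered arrays correlated at -0.22, -0.05 and 0.04. The cause of these shifts was not tested. Within slide 1 a genotype had 1 array, so only values, with no test, could be had there. The number of arrays limits the precision, and Mybphl and Bmp10 were limited by signal near background.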
